A study of Mus musculus with 18 samples.

Results

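A set of 10 genes of calcium handling was followed in the dental epithelium of mouse molars that lacked the chromatin proteins HMGN1 and HMGN2. They were chosen by symbol, with earlier results of these data known. They are the plasma membrane pumps Atp2b1 and Atp2b4, the store pump Atp2a2, the store sensors Stim1 and Stim2, the store entry channel Orai1, the store release channels Itpr1, Itpr2 and Itpr3, and the cytosolic buffer Calb1. These were 10 of 32532 genes in the table of embryonic day 17 (E17) and 10 of 19450 in that of postnatal day 5 (P5). The table of postnatal day 0 (P0) held 4841 genes, on chromosomes 1 and 10 and part of 11, and 2 of the members, Atp2b1 and Atp2b4. The other 8 were not analysed here at P0.

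A resting cell keeps its cytosolic calcium low. Pumps of the plasma membrane (PMCA, the Atp2b genes) move calcium out of the cell, and pumps of the endoplasmic reticulum (SERCA, here Atp2a2) load the internal store. Inositol trisphosphate opens the receptors encoded by the Itpr genes and releases the store, STIM proteins sense the emptied store, and they then open ORAI channels so that calcium enters from outside. Ameloblasts, the epithelial cells that lay down enamel, carry large amounts of calcium to the forming mineral, and loss of STIM1 or ORAI1 is known to give poorly mineralised enamel.

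RNA sequencing compared DKO libraries, labelled Hmgn1-/-; Hmgn2-/-, with wild-type (WT) libraries at E17, P0 and P5. There were 3 libraries in each of the 6 groups, 18 in all. The epithelium had been parted from the mesenchyme with dispase. The labels give neither the alleles, the strain nor the number of animals behind a library, and p-values can therefore reflect no more than how far these libraries scatter, perhaps for technical reasons alone. Values were read as RPKM (reads per kilobase of transcript, relative to all mapped reads), a unit that no source states, and were summed over the transcripts of a gene. On that reading, levels of different genes can be compared per length.

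Log2 fold changes are DKO over WT on the log2(RPKM + 1) scale, with the standard error, and adjusted p is Benjamini-Hochberg adjusted over all genes tested in limma. The scale of the libraries shifted between genotypes. Over all genes tested, the log2 fold change had a median of 0.25 at E17, of -0.05 at P0 and of -0.25 at P5. Once every library was brought to an equal upper quartile the medians were -0.00, -0.04 and -0.06. A gene is said to have risen or fallen where adjusted p was under 0.05 in the same direction on the deposited and on the scaled values, and "scaled" marks the second of these.

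The depth was 65953495 to 99967427 alignments per E17 library, 74845352 to 108920337 per P0 library and 39209676 to 72660832 per P5 library. The targeted genes were lower in every DKO library. Hmgn2 stood at 0.839 to 0.975 RPKM in DKO libraries and 320.0 to 354 RPKM in WT libraries at E17, and at 5.44 to 10.4 RPKM in DKO libraries and 166 to 183 RPKM in WT libraries at P5. Hmgn1 stood at 86.2 to 92.9 RPKM in DKO libraries and 123 to 133 RPKM in WT libraries at E17, and at 69.8 to 72.6 RPKM in DKO libraries and 179 to 189.6 RPKM in WT libraries at P5. Neither gene was analysed here at P0. The epithelial keratin gene Krt14 stood at 505 to 601 RPKM at E17 and 1481 to 1760 RPKM at P5 over both genotypes. The ameloblast genes (Amelx, Ambn, Enam, Mmp20, Odam and Sp6) summed to 76.7 to 88.9 RPKM in DKO libraries and 28.5 to 32.4 RPKM in WT libraries at E17. Most of that sum was Sp6 (61.2 to 69.4 RPKM in DKO libraries and 14.6 to 20.7 RPKM in WT libraries), which rose together with Odam. The enamel matrix gene Ambn fell (log2 fold change -0.35, adjusted p = 0.0487, scaled -0.59), Amelx was not called, and Enam and Mmp20 lay under the filter. At P5 the same 6 genes took 46.2%, 45.5% and 41.0% of the summed RPKM in DKO libraries, against 27.0%, 28.7% and 25.7% in WT libraries. Most of that was Amelx (162338 to 197948 RPKM in DKO libraries and 90465 to 108356 RPKM in WT libraries). Amelx, Ambn, Enam and Mmp20 rose at P5, and Odam was not called (log2 fold change -0.12, scaled 0.11). Sp6 was lower in every DKO library as deposited (-0.31, adjusted p = 0.0103) but was not called after scaling (-0.09). None of the epithelium and ameloblast markers was in the P0 table.

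The clearest change among the members was that of Atp2b1 at P0. It lies on chromosome 10 (98914406 to 99026143, plus strand, mm10), and 2 transcription start sites near its 5′ end are annotated. The 300 bases around each run from 250 before to 50 after the start. They are shown because transcripts beginning within each window were higher in the DKO libraries at P0, as were others beginning elsewhere in the gene. They are from RefSeq on build GRCm38.p6, plus strand, with GGGCGG, the letters of the GC box bound by the Sp1 family, in capitals where it occurs on either strand.

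Atp2b1, chr10:98914392-98914691: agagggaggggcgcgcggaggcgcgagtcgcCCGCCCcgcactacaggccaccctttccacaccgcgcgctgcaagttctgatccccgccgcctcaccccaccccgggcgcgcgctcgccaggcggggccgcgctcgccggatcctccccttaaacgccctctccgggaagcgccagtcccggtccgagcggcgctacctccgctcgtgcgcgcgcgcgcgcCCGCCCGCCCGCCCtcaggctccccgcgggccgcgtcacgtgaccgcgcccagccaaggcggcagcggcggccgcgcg
Atp2b1, chr10:98914902-98915201: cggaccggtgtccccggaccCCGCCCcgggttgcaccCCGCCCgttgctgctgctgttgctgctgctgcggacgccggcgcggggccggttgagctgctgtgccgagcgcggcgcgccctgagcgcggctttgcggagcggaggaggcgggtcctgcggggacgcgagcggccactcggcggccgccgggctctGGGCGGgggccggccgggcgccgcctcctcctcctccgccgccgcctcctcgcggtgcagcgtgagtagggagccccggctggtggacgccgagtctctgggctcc

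Both windows were rich in CpG dinucleotides, with 54 in the upstream and 45 in the downstream window, where the median of all 32851 mouse promoter windows was 7. GGGCGG occurred 4 times in the upstream window, 3 of them in overlapping positions of a single run, and 3 times in the downstream window. It was found in 35.7% of all windows. The letters TATAAA, searched on both strands, were in neither window and in 13.6% of all windows. The only window matched for Atp2b4, around the start at 133753747, held 4 CpG and no GGGCGG. Its transcripts Atp2b4-206 and Atp2b4-204 begin further upstream, at 133801041 and 133801036, where no window was matched. The windows of Stim1, Stim2, Orai1, Itpr2 and Itpr3 held 38, 39, 36, 26 and 30 CpG. GGGCGG occurred 8, 3, 3, 5 and 1 times in them, in the same order. Richness in CpG and GGGCGG was thus not particular to Atp2b1 among the members. Promoter windows were matched for 7 of the 10 members.

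Of the pumps that clear calcium from the cytosol, Atp2b1 rose in the DKO at P0 and P5, Atp2a2 rose at P5, and Atp2b4 rose at P0 by a narrow margin. Atp2b1, the pump most cells use for export, stood at 11.7, 13.4 and 13.3 RPKM in DKO libraries and 11.3, 12.1 and 11.6 RPKM in WT libraries at E17. The libraries of both genotypes overlapped there, and the log2 fold change was 0.12 ± 0.07 (adjusted p = 0.166, scaled -0.15, adjusted p = 0.0889). At P0 it stood at 46.4, 48.5 and 49.5 RPKM in DKO libraries and 18.8, 18.1 and 18.0 RPKM in WT libraries. The means were 48.1 ± 1.57 RPKM in DKO and 18.3 ± 0.397 RPKM in WT (SD, n = 3 each), a ratio of 2.63, and no library of either genotype came near the other. The log2 fold change was 1.35 ± 0.06 (adjusted p = 5.37e-08, scaled 1.37, adjusted p = 2.12e-06).

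At P5 the same pump stood at 42.6, 43.3 and 39.1 RPKM in DKO libraries and 38.5, 35.0 and 35.4 RPKM in WT libraries. It was still higher in every DKO library, by 0.19 ± 0.06 on the log2 scale (adjusted p = 0.0204, scaled 0.41, adjusted p = 0.000389). The call was lost on the deposited values without DKO replicate 1 (adjusted p = 0.0719), DKO replicate 2 (0.0869), WT replicate 2 (0.0582) or WT replicate 3 (0.0607). The genotype effect itself differed between stages. It was larger at P0 than at E17 by 1.23 ± 0.10 on the log2 scale (adjusted p = 5.75e-09, scaled 1.52), where 31.6% of all genes tested at both stages differed. It was smaller at P5 than at P0 (log2 difference -1.15 ± 0.09, adjusted p = 9.40e-10, scaled -0.95), where 41.1% of all genes tested at both differed.

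Atp2b4, a second plasma membrane pump (chromosome 1, 133699457 to 133801041, minus strand), had smaller log2 fold changes. It stood at 8.85, 9.29 and 9.71 RPKM in DKO libraries and 7.99, 9.37 and 9.38 RPKM in WT libraries at E17 (log2 fold change 0.06, adjusted p = 0.551). At P0 it stood at 16.0, 12.7 and 15.1 RPKM in DKO libraries and 11.9, 11.3 and 12.9 RPKM in WT libraries. DKO replicate 2 lay within the WT range. The log2 fold change of 0.26 ± 0.09 passed narrowly (adjusted p = 0.0473, scaled 0.28, adjusted p = 0.0159), and the call was lost without DKO replicate 1 (adjusted p = 0.191), DKO replicate 3 (0.157), WT replicate 1 (0.116) or WT replicate 2 (0.0915), and also without the filter (0.155) or without limma's trend (0.0582).

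With Atp2b1 and Atp2b4, both members tested at P0 rose, where 16.7% of all 2062 genes tested at P0 rose and 22.8% fell. Among other cell types at P0, 3 of the 10 listed mesenchyme and odontoblast markers were in the table. They summed to 1796, 2734 and 2435 RPKM in DKO libraries and 684, 554 and 678 RPKM in WT libraries. Of these, Col1a1 rose, and Col3a1 and Prrx1 fell. The 2 red cell markers in the table, of 6 listed, summed to 883 to 1118 RPKM in DKO libraries and 1356 to 1495 RPKM in WT libraries, and Hba-a2 fell (log2 fold change -1.31). Of the 3 macrophage markers in the table, of 7 listed, Cd68 fell (-0.40), while their sums overlapped at 26.9 to 33.9 RPKM in DKO libraries and 24.1 to 32.6 RPKM in WT libraries. The part of these shifts in the Atp2b1 and Atp2b4 values was not tested. In bulk tissue, fewer cells of a type and less RNA per cell cannot be told apart.

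At P5, Atp2b4 stood at 14.1, 14.9 and 14.1 RPKM in DKO libraries and 18.3, 13.8 and 15.5 RPKM in WT libraries. These overlapped, and the sign turned with the scale (log2 fold change -0.13, adjusted p = 0.238, scaled 0.09, adjusted p = 0.378). The ratio of Atp2b1 to Atp2b4 within a library does not depend on library scale. It was 1.33, 1.44 and 1.37 in DKO libraries and 1.41, 1.29 and 1.24 in WT libraries at E17, which overlapped. At P0 it was 2.91, 3.82 and 3.27 in DKO libraries and 1.58, 1.61 and 1.40 in WT libraries. At P5 it was 3.01, 2.91 and 2.76 in DKO libraries and 2.10, 2.54 and 2.28 in WT libraries. The balance thus lay further toward Atp2b1 in every DKO library at both postnatal stages, with an exact two-sided permutation p of 0.1 at each, which is the smallest that 3 against 3 can give (0.186 after adjustment over 13 ratios).

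**Figure D1:**
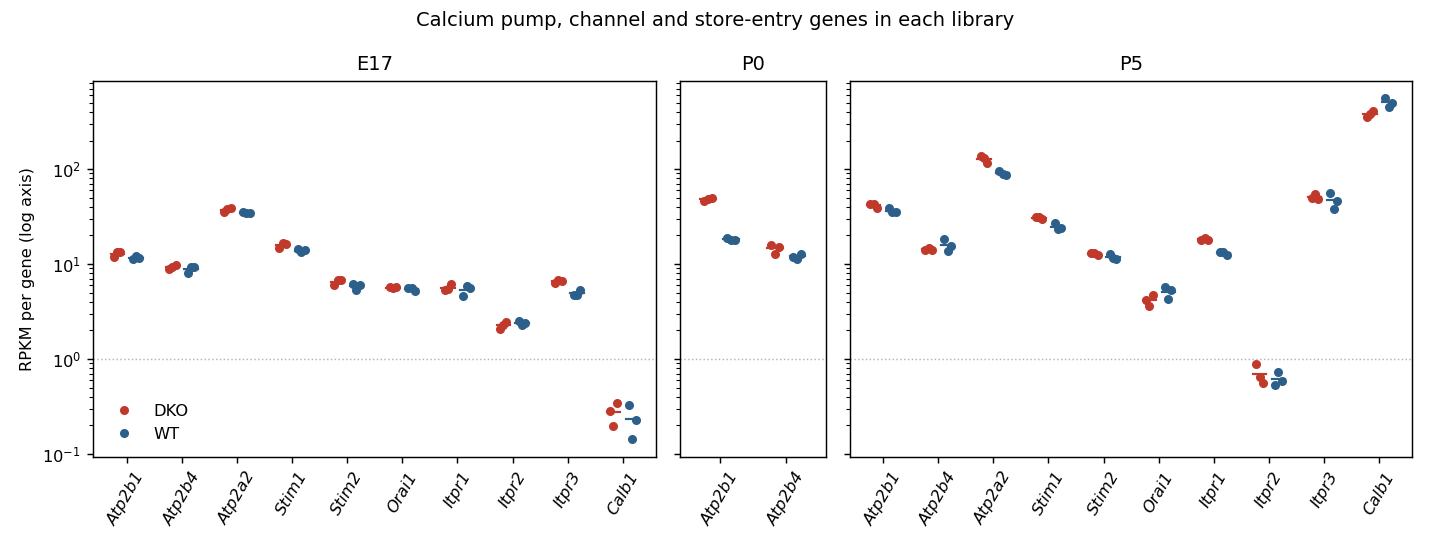
RPKM of the 10 members in each library, DKO (red) left of WT (blue), at E17, P0 and P5 on a log axis, with horizontal bars for the means of 3 libraries and a dotted line at 1 RPKM, the filter. At P0 the 3 DKO libraries sit at 46.4 to 49.5 RPKM for Atp2b1, all above the WT libraries at 18.0 to 18.8 RPKM.

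The store pump Atp2a2 (SERCA2) lies on chromosome 5 (122453513 to 122502225, minus strand) and had the largest log2 fold change of the members tested at P5. It stood at 137, 131 and 117 RPKM in DKO libraries and 94.9, 88.9 and 87.7 RPKM in WT libraries, so that every DKO library was higher. The means were 128 ± 10.3 RPKM in DKO and 90.5 ± 3.86 RPKM in WT (SD, n = 3 each), and the log2 fold change was 0.50 ± 0.07 (adjusted p = 0.000127, scaled 0.72, adjusted p = 5.07e-05). At E17 it stood at 35.1, 38.2 and 39.1 RPKM in DKO libraries and 34.9, 34.1 and 34.2 RPKM in WT libraries. The small difference there changed sign with the scale (log2 fold change 0.12, adjusted p = 0.138, scaled -0.16, adjusted p = 0.0347). The genotype effect was larger at P5 than at E17 by 0.38 ± 0.09 on the log2 scale (adjusted p = 0.00118, scaled 0.88, adjusted p = 8.31e-07).

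The store pump was also set against the export pump. The ratio of Atp2a2 to Atp2b1 was 3.22, 3.02 and 2.99 in DKO libraries and 2.46, 2.54 and 2.48 in WT libraries at P5, with no overlap (exact p = 0.1, adjusted 0.186). At E17 it was 2.996, 2.86 and 2.94 in DKO libraries and 3.09, 2.82 and 2.94 in WT libraries, which overlapped (exact p = 1).

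Of the sensors of store filling at P5, Stim1 rose and Stim2 passed on the scaled values alone. Stim1 (chromosome 7, 102267806 to 102437319), the main sensor of a depleted store, stood at 31.4, 31.4 and 29.6 RPKM in DKO libraries and 27.0, 23.4 and 24.0 RPKM in WT libraries. It was higher in every DKO library, and the log2 fold change was 0.30 ± 0.07 (adjusted p = 0.00238, scaled 0.52, adjusted p = 9.99e-05). Stim2 (chromosome 5, 53998499 to 54121057), which senses small drops in store calcium, stood at 13.0, 13.0 and 12.4 RPKM in DKO libraries and 12.7, 11.6 and 11.3 RPKM in WT libraries. These overlapped, and the log2 fold change was 0.10 ± 0.07 (adjusted p = 0.188), with a scaled value of 0.31 (adjusted p = 0.00109). The ratio of Stim1 to Stim2 was 2.42, 2.41 and 2.38 in DKO libraries and 2.13, 2.01 and 2.12 in WT libraries (exact p = 0.1, adjusted 0.186), whereas at E17 the ratios of both genotypes overlapped, at 2.45 to 2.46 in DKO libraries and 2.29 to 2.53 in WT libraries.

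Orai1 (chromosome 5, 123015074 to 123030456), the pore that STIM1 opens, was not called at P5. At P5 it stood at 4.15, 3.65 and 4.75 RPKM in DKO libraries and 5.78, 4.28 and 5.28 RPKM in WT libraries. The groups overlapped, and the log2 fold change was -0.24 ± 0.11 (adjusted p = 0.0751, scaled -0.05, adjusted p = 0.701). Per length, the ratio of Orai1 to Stim1 was 0.132, 0.116 and 0.160 in DKO libraries and 0.214, 0.183 and 0.220 in WT libraries at P5. It was lower in every DKO library (exact p = 0.1, adjusted 0.186). At E17 it was 0.387, 0.338 and 0.345 in DKO libraries and 0.387, 0.414 and 0.377 in WT libraries, which overlapped (exact p = 0.3).

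At E17 neither sensor nor channel was called. Stim1 stood at 14.7, 16.6 and 16.4 RPKM in DKO libraries and 14.4, 13.4 and 13.9 RPKM in WT libraries (log2 fold change 0.18, adjusted p = 0.0479, scaled -0.09, adjusted p = 0.237). Stim2 stood at 5.99, 6.78 and 6.72 RPKM in DKO libraries and 6.10, 5.28 and 6.08 RPKM in WT libraries. Orai1 stood at 5.69, 5.62 and 5.67 RPKM in DKO libraries and 5.57, 5.54 and 5.25 RPKM in WT libraries. For all 3 genes the deposited log2 fold change was above 0 and the scaled one below 0.

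**Figure D2:**
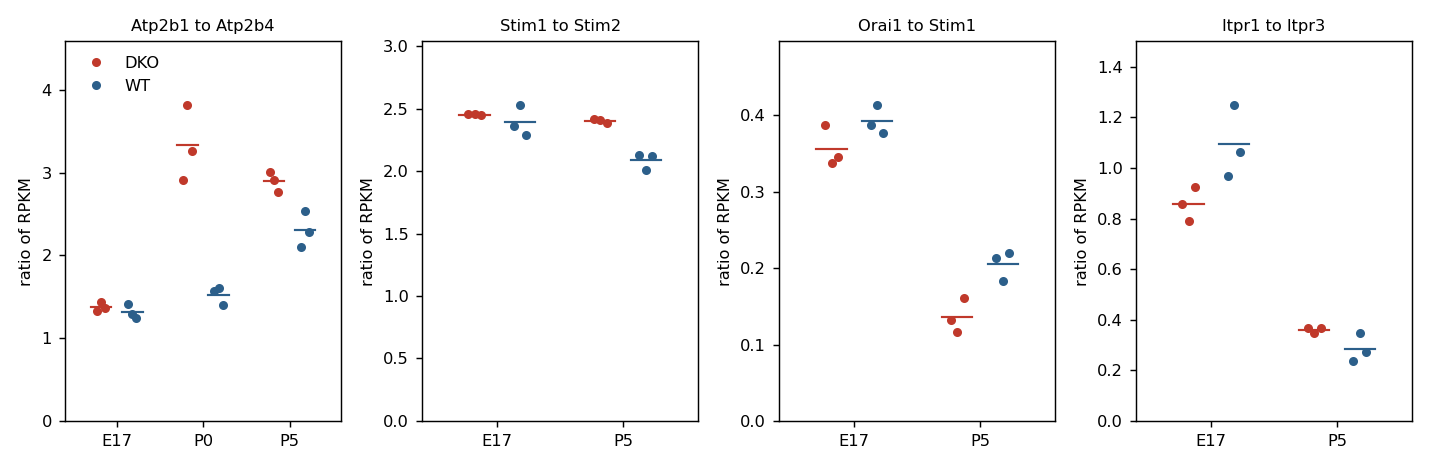
Ratios of RPKM of 2 members within each library, DKO (red) left of WT (blue) at each stage, with bars for the means of 3 libraries and axes from 0. At P5 the ratio of Orai1 to Stim1 sits at 0.116 to 0.160 in DKO libraries, all below the WT libraries at 0.183 to 0.220, and that of Stim1 to Stim2 at 2.38 to 2.42, all above the WT libraries at 2.01 to 2.13.

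Of the 3 receptors that release the store, Itpr1 rose at P5. This receptor (chromosome 6, 108213096 to 108551109), best known from Purkinje neurons, stood at 18.1, 18.8 and 17.8 RPKM in DKO libraries and 13.5, 13.3 and 12.6 RPKM in WT libraries. The genotypes were well apart, with means of 18.3 ± 0.496 RPKM in DKO and 13.1 ± 0.479 RPKM in WT (SD, n = 3 each). The log2 fold change was 0.45 ± 0.06 (adjusted p = 0.000122, scaled 0.66, adjusted p = 2.98e-05). At E17 it stood at 5.39, 5.41 and 6.16 RPKM in DKO libraries and 4.60, 5.91 and 5.61 RPKM in WT libraries, which overlapped (log2 fold change 0.07, adjusted p = 0.557, scaled -0.18). The genotype effect was larger at P5 than at E17 by 0.38 ± 0.11 on the log2 scale (adjusted p = 0.00531, scaled 0.84, adjusted p = 7.55e-05).

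Itpr3 (chromosome 17, 27057304 to 27122223), the receptor typical of secretory epithelia, was the most abundant of the 3 at P5. It stood at 49.6, 54.3 and 48.5 RPKM in DKO libraries and 56.5, 38.4 and 46.0 RPKM in WT libraries. The WT libraries spread so widely that they enclosed the DKO range (log2 fold change 0.13 ± 0.11, adjusted p = 0.337, scaled 0.35, adjusted p = 0.0230). At E17 it stood at 6.29, 6.83 and 6.65 RPKM in DKO libraries and 4.76, 4.73 and 5.28 RPKM in WT libraries. Every DKO library was higher as deposited, at a log2 fold change of 0.36 ± 0.07 (adjusted p = 0.00362), but after scaling the libraries overlapped (0.11, adjusted p = 0.270).

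Itpr2 (chromosome 6, 146108299 to 146502223, minus strand), the most inositol trisphosphate-sensitive of the family, was the least abundant. It stood at 2.08, 2.28 and 2.43 RPKM in DKO libraries and 2.51, 2.26 and 2.38 RPKM in WT libraries at E17 (log2 fold change -0.05, adjusted p = 0.582, scaled -0.26, adjusted p = 0.0419). At P5 it stood at 0.879, 0.651 and 0.565 RPKM in DKO libraries and 0.532, 0.735 and 0.581 RPKM in WT libraries, under the filter, and was not tested.

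The receptors were also compared within each library. At E17 the ratio of Itpr1 to Itpr3 was 0.856, 0.792 and 0.926 in DKO libraries and 0.967, 1.25 and 1.06 in WT libraries. That of Itpr2 to Itpr3 was 0.331, 0.334 and 0.366 in DKO libraries and 0.527, 0.478 and 0.452 in WT libraries. Both were lower in every DKO library (exact p = 0.1 each, adjusted 0.186), so that Itpr3 made up 43.6% to 47.0% of the summed receptor RPKM in DKO libraries and 36.6% to 40.1% in WT libraries. At P5 the order was the other way for the first ratio, at 0.366, 0.346 and 0.368 in DKO libraries and 0.238, 0.347 and 0.273 in WT libraries. WT replicate 2 lay within the DKO range there (exact p = 0.2).

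The buffer Calb1 (calbindin-D28k, chromosome 4, 15881264 to 15908064), a calcium-binding protein long known in ameloblasts, had the largest contrast of level between stages. At E17 it stood at 0.285, 0.198 and 0.346 RPKM in DKO libraries and 0.329, 0.142 and 0.229 RPKM in WT libraries, under the filter and not tested. At P5 it was the highest member, with 357, 381 and 414 RPKM in DKO libraries and 559, 456 and 498 RPKM in WT libraries. Levels at E17 and P5 come from tables made separately and were not tested against each other. At P5 every DKO library was lower as deposited, with means of 384 ± 28.6 RPKM in DKO and 505 ± 52.0 RPKM in WT (SD, n = 3 each) and a log2 fold change of -0.39 ± 0.08 (adjusted p = 0.00158). After scaling, the libraries overlapped and the call was not kept (-0.17, adjusted p = 0.0716). It passed on both scales without DKO replicate 3 (scaled adjusted p = 0.0419) and without WT replicate 2 (0.0157).

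Counted together, 4 of 9 members tested rose at P5 (Atp2b1, Atp2a2, Stim1 and Itpr1) and none fell, where 7.35% of all 11423 genes tested at P5 rose and 30.8% fell. The median log2 fold change of the 9 was 0.13, beside -0.25 over all genes tested, and 0.35 beside -0.06 after scaling. The rises of the members stand beside the larger share of the ameloblast genes in the DKO libraries given above, a share made up mostly of Amelx. They also stand beside mesenchyme and odontoblast markers that summed to 957 to 1276 RPKM in DKO libraries and 2075 to 2500 RPKM in WT libraries (5 of 10 fell and none rose). Neuron and glia markers (34.4 to 45.7 RPKM in DKO libraries and 71.0 to 115 RPKM in WT libraries) and red cell markers (517 to 1185 RPKM in DKO libraries and 1348 to 1479 RPKM in WT libraries) had lower sums in every DKO library too. So had the endothelial markers (32.2 to 43.3 RPKM in DKO libraries and 50.04 to 53.7 RPKM in WT libraries), the macrophage markers (40.9 to 44.9 RPKM in DKO libraries and 56.6 to 64.5 RPKM in WT libraries) and the dental epithelium markers (4393 to 4591 RPKM in DKO libraries and 4621 to 5666 RPKM in WT libraries). Of the neuron and glia markers 1 of 8 rose and 1 fell. Of the red cell markers 5 of 6 fell, of the endothelial 3 of 7, of the macrophage 3 of 7 and of the dental epithelium 1 of 7, and none of these rose. The sums are of deposited values. The log2 fold changes of Krt14 and Krt5, which were not called, were -0.09 each as deposited and 0.13 each after scaling. Cornifying epithelium markers overlapped between genotypes (1 of 8 fell). The part of any of these shifts in the members' values was not tested. Skeletal muscle markers at P5 summed to 3.37 to 34.2 RPKM in DKO libraries and 2.96 to 4.61 RPKM in WT libraries.

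At E17, 0 of 9 members tested were called, where 9.69% of all 13728 genes tested at E17 were called, 6.61% rising and 3.07% falling. At an unadjusted p under 0.05 in limma, 2 members passed on the deposited values and 5 on the scaled values, and 0 passed on both in the same direction. On the deposited values alone Stim1 and Itpr3 passed the adjusted threshold as higher, as did 56.3% of all genes, while 3.3% passed as lower. On the scaled values alone Atp2a2 and Itpr2 passed it as lower, as did 8.03% of all genes, while 6.61% passed as higher. The median log2 fold change of the 9 was 0.12, beside 0.25 over all genes, and -0.16 beside -0.00 after scaling. At E17 the mesenchyme and odontoblast markers summed to 2234 to 2556 RPKM in DKO libraries and 4228 to 4530 RPKM in WT libraries, and the dental epithelium markers to 2704 to 3066 RPKM in DKO libraries and 2170 to 2493 RPKM in WT libraries. Of the first list 6 of 10 fell and none rose, and of the second 4 of 7 rose and none fell. These sums are of deposited values. In the second list Krt14 and Krt5 were not called. Their log2 fold changes were 0.14 and 0.16 as deposited, and -0.15 and -0.13 after scaling. Red cell markers summed to 10410 to 21295 RPKM in DKO libraries and 5770 to 7228 RPKM in WT libraries (5 of 6 rose), and cornifying epithelium markers to 283 to 780.1 RPKM in DKO libraries and 151 to 248 RPKM in WT libraries (6 of 8 rose). Neuron and glia markers summed to 38.7 to 41.4 RPKM in DKO libraries and 14.9 to 17.4 RPKM in WT libraries (2 of 8 rose). Macrophage markers summed to 136 to 154 RPKM in DKO libraries and 113 to 129 RPKM in WT libraries with 0 of 7 called, and endothelial markers overlapped with 0 of 7 called. None of these fell. Their part in the members' values was not tested. The effect differed between P5 and E17 for 2 of the 8 members tested at both stages, Atp2a2 and Itpr1, where 30.1% of all 11049 genes tested differed.

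**Figure D3:**
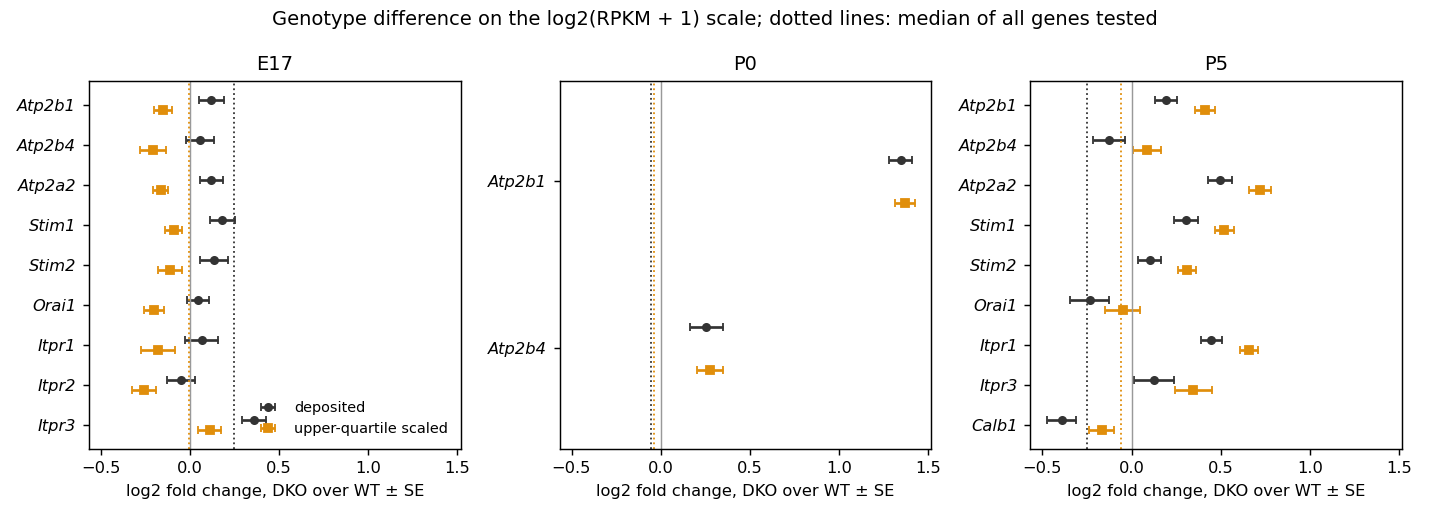
Log2 fold change of each tested member, DKO over WT on the log2(RPKM + 1) scale with its standard error, from the deposited values (black circles) and after upper-quartile scaling (orange squares), with the median of all genes tested as dotted lines in the same colours. At P5, Atp2a2 is highest on both scales (0.50 and 0.72), and at E17 most members lie above 0 as deposited and below 0 after scaling.

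Within WT libraries at E17 the order of mean levels was Atp2a2 (34.4 RPKM), Stim1 (13.9), Atp2b1 (11.7), Atp2b4 (8.92), Stim2 (5.82), Orai1 (5.45), Itpr1 (5.37), Itpr3 (4.92), Itpr2 (2.38) and Calb1 (0.233). The ranges of the neighbours from Stim2 to Itpr3 overlapped, and the other neighbours did not. At P5 the WT order was Calb1 (505 RPKM), Atp2a2 (90.5), Itpr3 (47.0), Atp2b1 (36.3), Stim1 (24.8), Atp2b4 (15.9), Itpr1 (13.1), Stim2 (11.9), Orai1 (5.11) and Itpr2 (0.616). There the ranges of Itpr3 and Atp2b1 and those of Itpr1 and Stim2 overlapped. A change of place was seen in the DKO libraries at P5, where Itpr1 (17.8 to 18.8 RPKM) lay above Atp2b4 (14.1 to 14.9 RPKM). In WT libraries Itpr1 (12.6 to 13.5 RPKM) lay below Atp2b4 (13.8 to 18.3 RPKM). This order was not tested.

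Transcripts of the members were read as a description, chosen after their values were seen and not tested. Reads shared between transcripts were divided among them before deposit, since many values lie far below the worth of a single read. Atp2a2 makes a form of 1044 residues (SERCA2b, found in most tissues) and a form of 998 residues (SERCA2a, the form of heart and slow muscle). At E17 the longer form stood at 24.8, 28.7 and 27.9 RPKM in DKO libraries and 19.6, 22.1 and 20.1 RPKM in WT libraries. The shorter form stood at 5.25, 5.27 and 6.91 RPKM in DKO libraries and 11.3, 7.60 and 9.29 RPKM in WT libraries. As deposited, the forms therefore differed in opposite directions beneath a gene sum that was not called. Transcript values were not scaled, and the median log2 fold change of all genes tested at E17 was 0.25 as deposited. Whether the longer form would stay higher after scaling was not tested. Shares within a gene do not depend on library scale. The shorter form made up 13.8% to 17.7% of Atp2a2 in DKO libraries and 22.3% to 32.4% in WT libraries.

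Skeletal muscle markers moved the same way at E17. Of the 12 listed, 7 fell and none rose, and they summed to 667, 775 and 767 RPKM in DKO libraries and 1594, 659 and 1297 RPKM in WT libraries. WT replicate 2 was the lowest of all 6 in that sum. It also had the least of the shorter Atp2a2 form among WT libraries, though still more than any DKO library. The part of muscle RNA in this difference was not tested. At P5, both forms were higher in the DKO. The longer stood at 117, 113 and 98.2 RPKM in DKO libraries and 80.2, 72.0 and 71.6 RPKM in WT libraries, and the shorter at 6.84, 7.35 and 6.24 RPKM in DKO libraries and 2.73, 2.25 and 2.21 RPKM in WT libraries.

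For Atp2b1 at P0, transcripts beginning near both start sites, whose sequences are given above, were higher in every DKO library. The full-length transcript of 1220 residues, Atp2b1-201, begins at 98915152 in the downstream window and stood at 35.8, 36.8 and 35.6 RPKM in DKO libraries and 12.9, 11.6 and 14.5 RPKM in WT libraries. The short transcript of 212 residues, Atp2b1-207, begins at 98914406 in the upstream window and stood at 5.49, 5.83 and 5.76 RPKM in DKO libraries and 2.12, 2.83 and 2.80 RPKM in WT libraries. It begins near the 5′ edge of that window, before the annotated start at 98914642, so most of the window lies after its own start. Their shares of the gene overlapped between genotypes, at 72.0% to 77.1% in DKO libraries and 63.9% to 80.7% in WT libraries for the full-length one. As deposited and without scaling, the transcript levels of Stim1 at E17 also differed by form. The 685-residue form stood at 13.1, 14.7 and 14.9 RPKM in DKO libraries and 11.8, 10.7 and 10.9 RPKM in WT libraries. The longer 793-residue form, Stim1-202, stood at 0.346, 0.395 and 0.312 RPKM in DKO libraries and 0.856, 0.468 and 0.840 RPKM in WT libraries. All of these lay under 1 RPKM, and the part of muscle RNA in this difference was not tested.

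**Figure D4:**
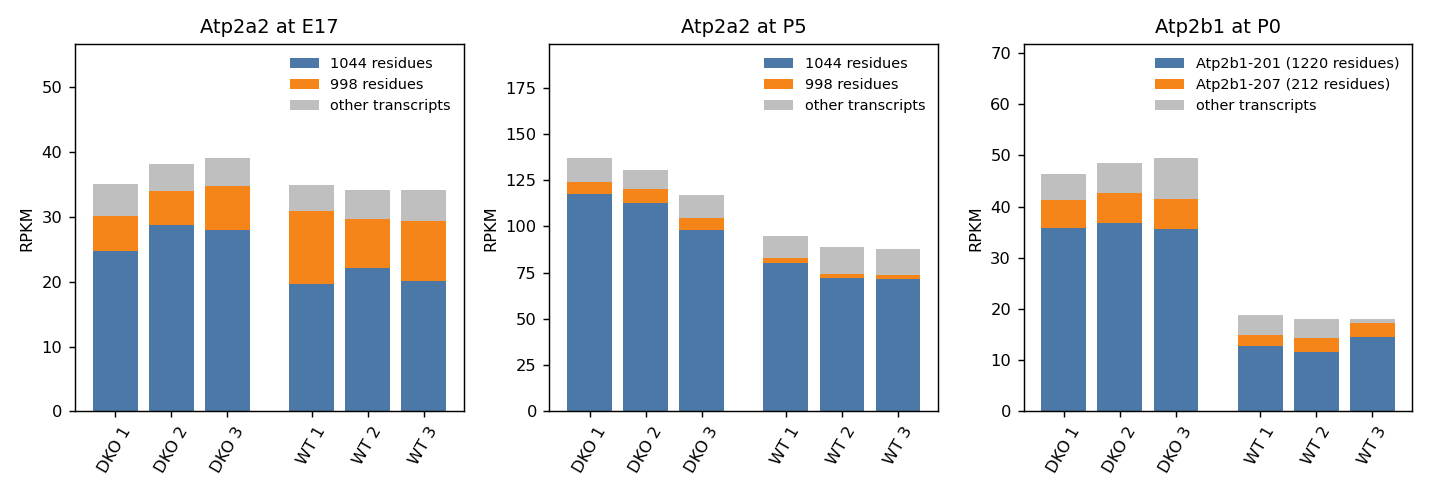
RPKM of the transcripts of Atp2a2 at E17 and P5 and of Atp2b1 at P0, stacked per library with DKO libraries left of WT libraries and axes from 0. The 998-residue form of Atp2a2 (orange) is smaller in DKO libraries at E17 (5.25 to 6.91 RPKM, against 7.60 to 11.3 RPKM in WT libraries) and larger at P5 (6.24 to 7.35 RPKM, against 2.21 to 2.73 RPKM).

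The wider machinery was read from a list of 112 other calcium-handling genes. At E17, 91 were tested, and 3 rose and 8 fell, where 6.61% of all genes tested rose and 3.07% fell. The 3 that rose were Mcub, an inhibitory subunit of the mitochondrial uniporter (log2 fold change 0.81, adjusted p = 0.000187, scaled 0.59), Orai2, a relative of Orai1 (0.61, adjusted p = 0.00133, scaled 0.36), and the calmodulin gene Calm2 (0.57, adjusted p = 0.00137, scaled 0.28). Those that fell were the exchanger Slc8a3 (-0.77, adjusted p = 0.000452), the channels Cacna1s (-0.71, adjusted p = 0.00181) and Cacna1c (-0.31, adjusted p = 0.0165), the release channel Ryr1 (-0.64, adjusted p = 0.00225) with its junctional partner Jph2 (-0.52, adjusted p = 0.00789), the store buffers Hrc (-1.02, adjusted p = 0.00220) and Casq2 (-0.88, adjusted p = 0.0275), and the muscle store pump Atp2a1 (-0.59, adjusted p = 0.0172). Most of these are best known from striated muscle, whose markers moved the same way as described above, and the part of muscle RNA in these falls was not tested. Some of these calls were narrow. That of Casq2 was lost without the filter, without trend and without any of the libraries other than WT replicate 2 (larger adjusted p of both scales from 0.0599 to 0.186). That of Atp2a1 was lost without the filter, DKO replicate 3, WT replicate 1 or WT replicate 3 (0.0528 to 0.12), and that of Cacna1c without the filter, DKO replicate 3, WT replicate 2 or WT replicate 3 (0.0534 to 0.0689). That of Calm2 was lost without the filter, DKO replicate 1, DKO replicate 3 or WT replicate 3 (0.0549 to 0.0790). Those of Orai2 (0.0674 and 0.0671) and Jph2 (0.0782 and 0.0538) were lost without the filter and without WT replicate 3. The count of 11 called genes was 7 without DKO replicate 3 and 5 without WT replicate 3. On the deposited values alone 32 of the 91 passed as higher and 8 as lower, and on the scaled values alone 3 as higher and 21 as lower.

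At P0, 12 of the listed genes were tested, and 3 rose and 2 fell, beside the 16.7% and 22.8% of all genes given above. Hsp90b1 (log2 fold change 0.46, adjusted p = 0.000831) and Casq1 (0.57, adjusted p = 0.00102), proteins of the store lumen, rose, as did Tmco1, a leak channel of the store membrane (0.34, adjusted p = 0.00351). The T-type channel Cacna1g (-0.70, adjusted p = 0.00109) and Septin4 (-0.51, adjusted p = 0.00267) fell.

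At P5, 71 were tested, and 7 rose and 16 fell, where 7.35% of all genes tested rose and 30.8% fell. On the deposited values alone 7 passed as higher and 35 as lower, and on the scaled values alone 16 as higher and 16 as lower, so that the balance of directions depended on the scale. The median log2 fold change of the 71 was -0.18, beside -0.25 over all genes tested, and 0.02 beside -0.06 after scaling. Orai2 stood at 18.2, 17.7 and 18.7 RPKM in DKO libraries and 13.5, 13.1 and 12.03 RPKM in WT libraries (0.47, adjusted p = 0.000154, scaled 0.68), and Orai3 at 5.82, 5.39 and 5.07 RPKM in DKO libraries and 8.92, 9.72 and 8.18 RPKM in WT libraries (-0.63, adjusted p = 9.20e-05, scaled -0.43). Of the ORAI family at P5, Orai2 thus rose, Orai3 fell and Orai1 was not called, and Orai2 was the most abundant of the 3 in both genotypes. Itpkb, a kinase that removes inositol trisphosphate, also rose (0.57, adjusted p = 0.000121). Genes that fell included the calmodulin gene Calm3 (-0.55, adjusted p = 6.85e-05), the calcineurin subunit Ppp3r1 (-0.39, adjusted p = 0.000173, but 0.0684 at -0.11 after median-of-ratios scaling), the uniporter pore Mcu (-0.66, adjusted p = 4.10e-05) and the lumenal protein Rcn1 (-0.92, adjusted p = 3.47e-06). The channel Trpv4 (-0.93, adjusted p = 1.44e-05), the exchanger Slc8a3 (-0.82, adjusted p = 4.59e-05), and Plcb3 (-0.56, adjusted p = 6.58e-05) and Gna11 (-0.47, adjusted p = 0.000100), which act upstream of inositol trisphosphate, fell too.

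The genes whose scaled levels ran most like a member's over the 12 libraries of E17 and P5 were, for Atp2b1, Itpripl2 (Pearson r = 0.999), Parvb and Tgfbr2, and for Atp2a2, Atp6v0a1 (0.998), St3gal4 and Srgap1. For Itpr1 they were Anks6 (0.999), Specc1l and Ldlrad4, for Itpr3 Fras1 (0.999), Prkci and Celsr1, for Stim1 Sidt2 (0.996), Fbxw7 and Dhx32, for Stim2 Rb1 (0.995), Fkbp1b and Plekhg3, and for Atp2b4 Tpcn1 (0.991), Hectd4 and Sec61a1. These points fall into the 2 stages, and the tables of the stages were annotated differently, so the values describe mostly the contrast between stages. Between 716 and 1039 of 10733 genes lay above 0.9 for each of these members. Orai1 had none above 0.9, the nearest being Tubgcp5 at 0.889.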

How the data were processed

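Libraries of ribosomal RNA-depleted total RNA were made with a NEBNext kit from dispase-separated molar epithelium, per the labels' protocols. The authors processed the reads with Partek on build mm10, per the submitters' processing notes. No source used here names the aligner, the annotation or the strand setting. The authors' deposited values were read as RPKM per transcript, a unit no source states. It was taken from the values, whose library sums are not fixed, and was not tested. The alignment counts per library are as deposited, per the file headers. Transcripts have GENCODE-style names at E17 and P0 and RefSeq names at P5, and stages were therefore fitted separately. Genes that share reads with an overlapping gene were not separated.

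RPKM were summed per symbol. Genes with at least 1 RPKM in at least 3 of 6 libraries were kept, and log2(RPKM + 1) was tested with limma 3.58.1 (empirical Bayes with trend, two-sided) in R 4.3.3, on the deposited values and after scaling each library to the same upper quartile (the 75 percentile). The pseudocount of 1 understates changes of low genes. Differences of the genotype effect between stages used the summed squared standard errors and Satterthwaite degrees of freedom. P5 against E17 was planned, and the other pairs of stages, and the transcripts, were added after the data were seen. Ratios were compared by exact permutation with scipy 1.17.1. The replicate numbers were not used as a block, since libraries of the same number did not deviate together at all numbers (r from -0.22 to 0.27). The members, the gene lists and the tests were chosen with earlier results of these data known. All members are named. Other calcium genes are named by smallest p among those called, up to 12 per stage, and genes alike to a member by the 3 highest correlations. Slc24a4 and Slc24a3 are named outside this rule. Positions are from GENCODE M21. Alternatives were the scaling, the filter, a pseudocount of 0.1, no trend, a log2 fold change of at least 0.5, the replicate block and each library left out. A gene of the wider list that met the naming rule at P5 is not reported here.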

Additional observations from a re-analysis of the deposited data

Results flagged for a closer look

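The genotype effect on 3 members differed between stages by a test of the difference itself, and these are singled out for that reason. Such a difference was common, and was called for 30.1% of all genes tested at P5 and E17, 31.6% at P0 and E17 and 41.1% at P5 and P0. For Atp2a2 the log2 fold change was 0.50 at P5 and 0.12 at E17, a difference of 0.38 (adjusted p = 0.00118), and it was past the threshold in all 18 alternatives, at 0.33 to 0.94. For Itpr1 it was 0.45 at P5 and 0.07 at E17, also a difference of 0.38 (adjusted p = 0.00531), and 0.32 to 0.90 over 18 alternatives, all past the threshold. For Atp2b1 it was 1.35 at P0 and 0.12 at E17, a difference of 1.23 (adjusted p = 5.75e-09), and 0.19 at P5, a difference of -1.15 from P0 (adjusted p = 9.40e-10). Those comparisons of Atp2b1 with P0 were chosen after the data were seen and share the P0 libraries. The direction was seen in 3 of 3 DKO libraries against all WT libraries for Atp2a2 and Itpr1 at P5 and for Atp2b1 at P0. The 3 genes were singled out from these same values, so this describes them and adds no separate support. The share of all genes without overlap is not given here. The stages were annotated differently, so that the sums cover different transcripts at P5.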

How the results depend on the processing

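Of 312 tested values recomputed under another setting, 272 kept their direction and side of the threshold. Of 91 ratios 86 kept their direction, and of 103 counts 84 stayed within 1.5 times. Counts of members called at E17 were 2 on the deposited values alone and 2 on the scaled values alone. At P0 the count was 1 with a minimum log2 fold change of 0.5, 1 without the filter and 1 without trend. At P5 it was 0 with that minimum, since Atp2a2 at 0.50 lay just under it. Without a library at a time, 0 members were called at E17, between 1 and 2 at P0, and between 3 and 6 at P5. The 6 were reached without WT replicate 1, with Stim2 and Itpr3 added, and 3 without DKO replicate 1, DKO replicate 2 or WT replicate 3, each of which ended the call of Atp2b1. The other calcium genes called numbered 40 at E17 on the deposited values alone, 24 on the scaled values alone, 5 without the filter, and 5 to 13 without a library at a time. They numbered 2 at P0 and 5 at P5 with the minimum fold change, 42 at P5 on the deposited values alone, 5 to 6 at P0 and 20 to 25 at P5 without a library. Members with a different effect at P5 and E17 numbered 6 on the scaled values alone.

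Signs turned mostly with scale at E17. After upper-quartile scaling the log2 fold change at E17 was -0.15 for Atp2b1, -0.21 for Atp2b4, -0.16 for Atp2a2, -0.090 for Stim1, -0.11 for Stim2, -0.20 for Orai1 and -0.18 for Itpr1, and at P5 0.086 for Atp2b4. Median-of-ratios scaling, added after the data were seen, gave -0.15, -0.20, -0.16, -0.088, -0.11, -0.20 and -0.18 for the same genes at E17, and 0.15 for Atp2b4 and 0.0026 for Orai1 at P5. Without WT replicate 1 at E17, Atp2b4 was at -0.014 and Itpr1 at -0.025, and without WT replicate 2 at P5, Itpr3 was at -0.0068. Over the libraries left out in turn these 3 reached 0.090, 0.13 and 0.27 at most. The log2 difference of the ratio Atp2a2 to Atp2b1 at E17, which overlapped between genotypes, was 0.010 without DKO replicate 2 and 0.027 without WT replicate 1, with -0.040 as the lowest. That of Itpr2 to Itpr3 at P5 was -0.057 with 1 added to each RPKM, -0.15 without DKO replicate 1 and -0.20 without WT replicate 1, with 0.31 as the highest. The cause was not tested.

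With the replicate number as a block, 0, 2 and 4 members were called at E17, P0 and P5, the counts of the fit without it, and 14, 5 and 21 other calcium genes. The numbers share no stated origin. Values rest on 3 libraries a group, and Calb1 at E17 and Itpr2 at P5 lay under 1 RPKM and could not be tested.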

Other observations

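Slc24a4, the potassium-dependent sodium-calcium exchanger of maturing ameloblasts, was on the list of other calcium genes but lay under the filter, and was picked out here after its values were seen. It stood at 0.905, 1.42 and 1.31 RPKM in DKO libraries and 0.185, 0.378 and 0.444 RPKM in WT libraries at P5, higher in every DKO library, with means of 1.21 ± 0.270 RPKM in DKO and 0.336 ± 0.134 RPKM in WT (SD, n = 3 each). At E17 it stood at 0.0898, 0.0468 and 0.104 RPKM in DKO libraries and 0.112, 0.146 and 0.152 RPKM in WT libraries. It was not tested at either stage. Its relative Slc24a3, also picked out here and not by the naming rule, rose at P5 (limma, log2 fold change 0.31, adjusted p = 0.00265, scaled 0.53). It stood at 34.1, 31.7 and 30.6 RPKM in DKO libraries and 27.8, 25.2 and 24.1 RPKM in WT libraries. Of the 71 listed genes tested at P5, 7 rose and 16 fell.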
